A study of Mus musculus with 6 samples.

Results

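The 7 mature miRNAs described here are mmu-miR-22-3p, mmu-miR-22-5p, mmu-miR-31-5p, mmu-miR-31-3p, mmu-miR-221-3p, mmu-miR-221-5p and mmu-miR-222-3p, out of 1899 entries counted in mouse embryonic stem (ES) cells. They were chosen from the data, for low counts in the untreated library of cells without Wt1 (Wt1 KO), so the difference between the untreated genotypes is a description and supports nothing. None of the 7 is merged with another entry. The 4 main arms, miR-31-5p and the 3p arms of miR-22, miR-221 and miR-222, reached a mean count of 50 over the libraries, the minimum for the 351 entries analysed. The other 3 are minor arms with mean counts of 20.0 (miR-22-5p), 11.5 (miR-221-5p) and 7.17 (miR-31-3p), and they are given with their counts.

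Small RNA was sequenced from 6 samples, 1 library for each of 6 groups, all ES cells of the 129/Ola strain grown on gelatin in serum with LIF. The groups were wild type (WT) untreated, Wt1 KO untreated, Wt1 KO given doxycycline (dox) at 1 µg/ml to induce Wt1 for 12 h or for 24 h, WT given retinoic acid (RA), and Wt1 KO given RA. The RA dose is read here as 1 µM, which the label writes with a small m. How long RA was given, how many clones stand behind each genotype, which allele was deleted and whether the untreated Wt1 KO cells carry the inducible Wt1 are not stated in the labels, and Wt1 itself was not measured here. Dox was given to Wt1 KO only, with no library of WT cells given dox analysed here, so induced Wt1 and dox itself cannot be told apart. No group has a replicate, so differences could not be set against a spread between samples, and every interval quoted covers counting error only.

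A miRNA gene is transcribed as a long RNA, from which a hairpin is cut out and then trimmed to a duplex of its 5p and 3p arms. One arm is usually kept in the Argonaute protein and guides it to messages that pair with the seed, bases 2 to 8 of the mature miRNA. miR-22 is known from heart and skeletal muscle and from blood cell formation. miR-31 is known from bone-forming stromal cells and from cancer invasion. miR-221 and miR-222 are a pair made from neighbouring hairpins, known in smooth muscle and endothelium and for repressing Cdkn1b (p27), an inhibitor of the cell cycle. Wt1 is a zinc finger transcription factor needed for the kidney and for the outer layer of the heart, tissues where cells pass between epithelial and mesenchymal states.

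The sequences of the 7 members show which of them can share targets and reads. They are printed from the deposited tables, 5′ to 3′, with the seed in capitals.
mmu-miR-22-3p: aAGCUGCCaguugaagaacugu
mmu-miR-22-5p: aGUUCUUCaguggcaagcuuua
mmu-miR-31-5p: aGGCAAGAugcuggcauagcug
mmu-miR-31-3p: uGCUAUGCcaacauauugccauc
mmu-miR-221-3p: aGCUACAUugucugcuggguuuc
mmu-miR-221-5p: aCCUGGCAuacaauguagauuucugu
mmu-miR-222-3p: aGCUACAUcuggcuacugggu

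miR-221-3p and miR-222-3p share the seed GCUACAU and the first 8 bases. Over the 21 bases of miR-222-3p they are identical at 11 positions and differ at 10, so a full-length read can be told apart. The same seed also occurs in miR-1928, which had 0 reads in all 6 libraries. The seeds of both arms of miR-22, both arms of miR-31 and miR-221-5p occur in no other entry of the tables. No multi-match read, one that matched several entries, was listed for any of the 7 members.

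RefSeq on GRCm38.p6 places all 4 hairpins, and the 2 whose main arms carry most reads are printed here with both arms in capitals and loop and flanks in lower case.
Mir22: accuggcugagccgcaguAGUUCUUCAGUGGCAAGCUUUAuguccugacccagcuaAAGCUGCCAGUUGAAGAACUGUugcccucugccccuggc
Mir31: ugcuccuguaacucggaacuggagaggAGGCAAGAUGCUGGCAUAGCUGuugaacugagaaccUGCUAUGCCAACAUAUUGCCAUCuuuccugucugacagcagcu

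Mir22 lies at chr11:75463716-75463810 on the plus strand, with miR-22-3p at chr11:75463772-75463793. In GENCODE M21 the hairpin falls inside an exon of its host gene Mir22hg, which is also an exon of a transcript of Tlcd2. Mir31 lies at chr4:88910557-88910662 on the minus strand, with miR-31-5p at chr4:88910614-88910635, inside an exon of the lincRNA AL805899.1. Mir221 (chrX:19146294-19146388) and Mir222 (chrX:19146893-19146971) lie on the minus strand, 504 bases apart, and overlap no other annotated gene. RefSeq gives miR-222-3p at chrX:19146901-19146923, 2 bases longer at the 3′ end than the entry counted here.

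Library totals ran from 83626 reads (Wt1 KO with RA) to 6106104 (WT with RA), a 73.0-fold range, so ratios that use Wt1 KO with RA are the least precise. Levels are given as scaled CPM, a count divided by a library size that edgeR's TMM method has adjusted, so that libraries of unlike make-up can be compared. A count of 0 allows up to 3 counts, which is 27.8 scaled CPM in Wt1 KO with RA and 2.75 or less in the other libraries. The libraries carried the 11 listed ES cell miRNAs of the miR-290 and miR-302 clusters, with a summed level of 155604 scaled CPM in untreated WT, 208612 to 251719 in the 3 Wt1 KO libraries without RA, 71547 in Wt1 KO with RA and 6773 in WT with RA. All 11 had reads in every library, except miR-302a-3p, which was at 0 in Wt1 KO with RA. The list did not move as 1 between the untreated genotypes. The log2 ratio of Wt1 KO to WT was -2.53 for miR-302a-3p, -2.28 for miR-302b-3p, -2.15 for miR-302d-3p and -0.89 for miR-290a-3p. For the other listed entries it was above 0.

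Reads of the 7 members made up 6.05% of untreated WT, 1.25% of untreated Wt1 KO, 2.82% and 2.54% of Wt1 KO with dox for 12 h and 24 h, 3.68% of RA-treated WT and 3.0% of RA-treated Wt1 KO. Between 96.2% and 98.7% of these reads were miR-22-3p, so the summed share follows that miRNA. miR-22-3p was among the most abundant entries, at rank 4 of 351 in untreated WT and rank 12 in untreated Wt1 KO.

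miR-22-3p was counted 62132 times in untreated WT, 21282 in untreated Wt1 KO, 34138 at 12 h of dox, 90543 at 24 h, 217331 in RA-treated WT and 2446 in RA-treated Wt1 KO. In scaled CPM its level was 57033, 15082, 30160, 26614, 32464 and 22640 in the same order. Untreated WT was the highest and untreated Wt1 KO the lowest, 3.78-fold apart, and all 5 steps between neighbours in the order of levels exceeded counting error. The smallest step, between WT with RA and Wt1 KO with dox for 12 h, was 0.11 on the log2 scale, with a 95% interval of 0.09 to 0.12. Both WT libraries lay above all 4 Wt1 KO libraries, but only just: the lower WT level was 32464 and the higher Wt1 KO level 30160. That untreated Wt1 KO lay under untreated WT follows from the choice of members, so that part of the order supports nothing. How many of the analysed entries have this order was not counted. This order held in 8 of 9 scalings and count minima. When reads of the stem cell clusters miR-290 and miR-302 were excluded from the total, the values were 35862 for the lower WT library and 36342 for the higher Wt1 KO library.

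miR-31-5p was counted 1697, 470, 245, 908, 5625 and 42 times, again in the order used for miR-22-3p. Its levels were 1558, 333, 216, 267, 840 and 389 scaled CPM. Both WT libraries stood above all 4 Wt1 KO libraries, in 9 of 9 scalings and count minima of these same libraries. Libraries of 1 genotype had different treatments, so they are no replicates of that genotype. That untreated Wt1 KO lay under untreated WT follows from the choice of members. How many of the analysed entries have this order was not counted, and it is not particular to miR-31-5p. The entries miR-125a-5p and miR-200a-3p, for example, had it too. Untreated WT was 7.20-fold above the lowest library, dox 12 h. Wt1 KO with RA and untreated Wt1 KO did not differ beyond counting error (log2 difference 0.24, 95% interval -0.27 to 0.68), while the other 4 steps in the order did.

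miR-221-3p was counted 382, 314, 159, 658, 1248 and 17 times, and its levels were 351, 223, 140, 193, 186 and 157 scaled CPM in the same order. Untreated WT was the highest, and the other libraries followed with genotypes mixed: untreated Wt1 KO, dox 24 h, WT with RA, Wt1 KO with RA and dox 12 h. From dox 24 h down no neighbours differed beyond counting error. The range was 2.50-fold, the narrowest of the 4 main arms.

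miR-222-3p was counted 74, 29, 20, 81, 100 and 2 times, at levels of 67.9, 20.6, 17.7, 23.8, 14.9 and 18.5 scaled CPM. Untreated WT stood alone, 1.51 on the log2 scale above its nearest neighbour, dox 24 h (95% interval 1.04 to 1.99). The other 5 libraries lay between 14.9 and 23.8 scaled CPM, with no neighbours apart beyond counting error, and WT with RA was the lowest of all.

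The minor arms were near the detection limit. miR-22-5p was counted 13, 8, 12, 32, 53 and 2 times, miR-31-3p 5, 3, 1, 4, 30 and 0 times and miR-221-5p 15, 6, 6, 14, 28 and 0 times, in the same order of libraries. For miR-22-5p and miR-31-3p no neighbours in the order of levels differed beyond counting error, nor did they for miR-221-5p, whose highest level was 13.8 scaled CPM in untreated WT. The other arm of the miR-222 hairpin, miR-222-5p, which is no member, had between 0 and 10 reads per library.

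**Figure D1:**
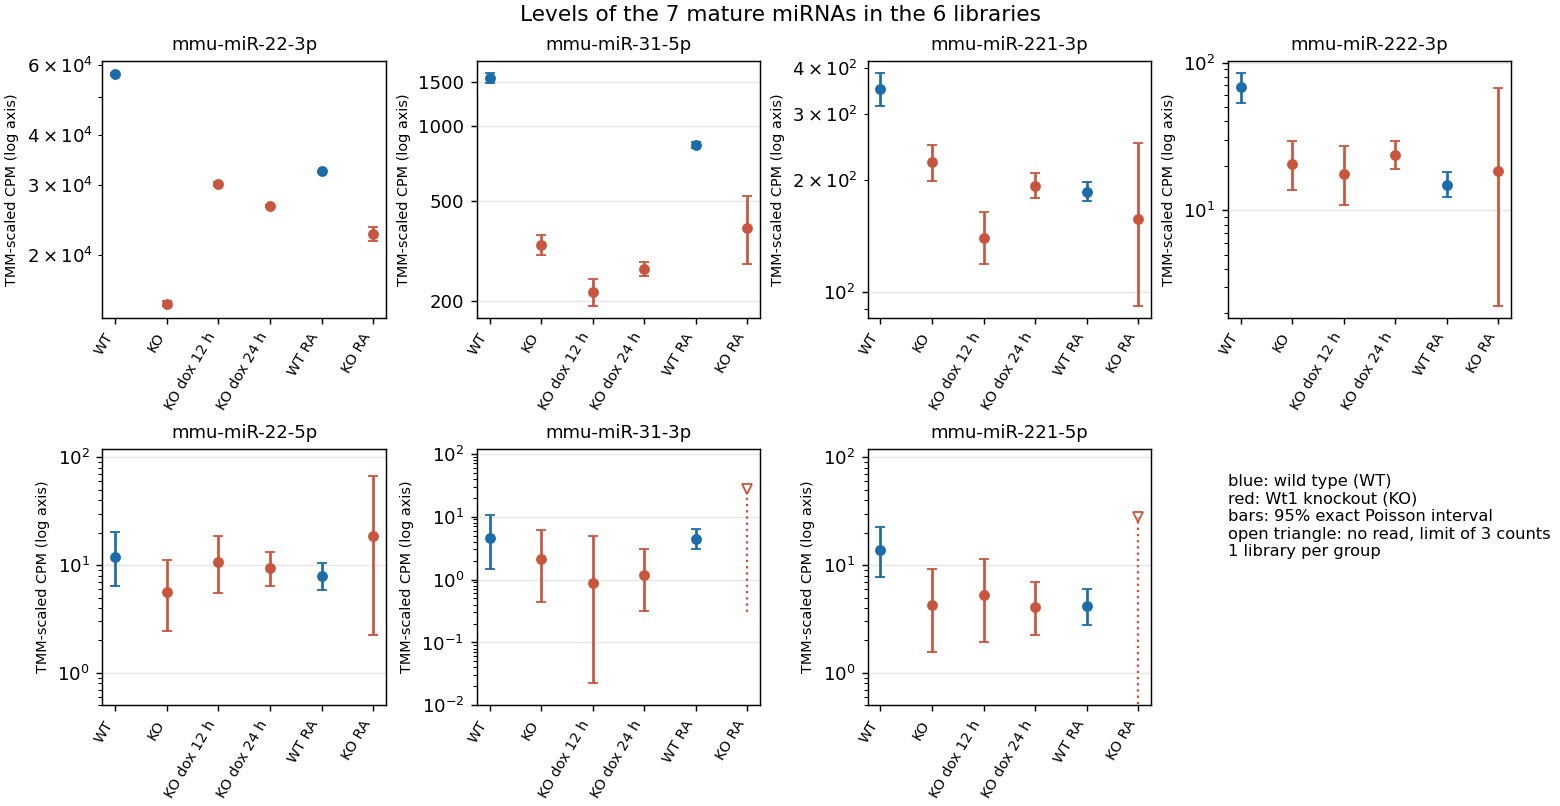
Level of each of the 7 miRNAs (vertical, scaled CPM, log axis with its own range in each panel) in the 6 libraries (horizontal), with 1 point per library and 95% exact Poisson intervals for counting error. Open triangles mark the 27.8 scaled CPM that a count of 0 allows in Wt1 KO with RA; for miR-31-5p both WT points, 1558 and 840, lie above the 4 Wt1 KO points.

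In the pair on which the members were chosen, untreated Wt1 KO against untreated WT, miR-22-3p was lower by a log2 ratio of -1.92 (95% interval -1.94 to -1.90) and miR-31-5p by -2.22 (-2.38 to -2.08). miR-222-3p had -1.71 (-2.40 to -1.09) and miR-221-5p, on 6 and 15 reads, -1.63 (-3.35 to -0.25). miR-221-3p had a smaller ratio than its seed partner, -0.66 (-0.88 to -0.44). A ratio is called lower or higher here when it is at least 1 in size on the log2 scale and its interval excludes 0, which 4 members met as lower and 0 as higher, against 15.4% and 12.3% of the 351 entries. Here and below, such shares cover entries that met the count minimum, which the minor arms among the members did not. The members' median was -1.63 and that of all analysed entries 0.11. Since the members were chosen on these values, nothing is read from them. The 43 higher and 54 lower entries became 24 and 78 when counts were scaled by library totals alone.

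RA is a signal that drives ES cells to differentiate, and WT with RA was first compared with untreated WT. The log2 ratios of all 7 members were below 0, with a median of -0.89 against 0.13 for all entries. miR-22-3p had a log2 ratio of -0.81 (95% interval -0.83 to -0.80), miR-31-5p of -0.89 (-0.97 to -0.81) and miR-221-3p of -0.91 (-1.08 to -0.74), all 3 short of the size rule. miR-222-3p was called lower at -2.19 (-2.63 to -1.73) and miR-221-5p at -1.74 (-2.67 to -0.71). These 2 of 7, and 1 of the 4 main arms, stand beside 24.2% of all entries called lower. For higher, 0 members stand beside 22.2%, so the count of calls is close to the background. This pair shares the untreated WT library, 1 side of the pair the members were chosen on, so its direction is not independent of that choice. The summed level of the stem cell list was 155604 in untreated WT and 6773 with RA, and its part in these ratios was not tested. In such bulk samples, fewer cells of a type and less RNA per cell cannot be told apart.

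RA in Wt1 KO gave another picture for miR-22-3p, which was higher with RA than without, at 22640 against 15082 scaled CPM. The log2 ratio was 0.59 (95% interval 0.53 to 0.65), under the size rule, and it was positive in all 9 alternative settings that recompute the ratio, ranging from 0.23 to 1.28. miR-31-5p had 0.24 (-0.27 to 0.68), miR-221-3p -0.46 (-1.30 to 0.20) and miR-222-3p, on 2 reads with RA, 0.15 (-3.26 to 1.83), and none of these 3 intervals excluded 0. No member was called, against 23.6% of all entries higher and 22.5% lower. This comparison uses the untreated Wt1 KO library, where the members were chosen to be low. The 83 higher and 79 lower entries became 126 and 33 with scaling by totals alone.

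The difference between the RA responses, Wt1 KO minus WT, was 1.40 for miR-22-3p (95% interval 1.34 to 1.46) and 1.13 for miR-31-5p (0.67 to 1.59), past the size rule in 10 and 8 of 11 alternative settings. RA went with a lower miR-22-3p in WT and a higher miR-22-3p in Wt1 KO, and with RA the genotypes lay closer together than without. miR-221-3p had a difference of 0.45 (-0.26 to 1.17). miR-222-3p, at 2.33 (0.42 to 4.25), and miR-22-5p, at 2.57 (0.37 to 4.78), rest on 2 reads each in Wt1 KO with RA. In all 4 members were called higher and 0 lower, against 23.1% and 15.1% of all entries. The 4 libraries include both on which the members were chosen, so the positive direction is partly set by that choice and nothing is read from the count. The 81 higher and 53 lower entries became 140 and 13 when the total excluded the clustered stem cell miRNAs.

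The genotypes under RA are a pair of libraries that the choice of members did not use. miR-31-5p was again lower in Wt1 KO, at 389 against 840 scaled CPM, with a log2 ratio of -1.10 (95% interval -1.59 to -0.68). It was the only member called, 1 of 7 lower and 0 higher, against 19.1% and 18.8% of all entries. Of the 4 main arms, which met the count minimum as those entries did, it was again 1. A count of 1 cannot be set apart from the background. The call rests on 42 reads in Wt1 KO with RA and held in 5 of 11 alternative settings, with the ratio negative in all 9 that recompute it, between -1.52 and -0.66. miR-22-3p had a ratio of -0.52 (-0.58 to -0.46), also negative in those 9, between -0.94 and -0.09. For miR-221-3p (-0.20, interval -1.03 to 0.44) and miR-222-3p (0.62, interval -2.76 to 2.20) no difference was detectable at this depth. miR-31-3p and miR-221-5p had no read in Wt1 KO with RA, and their 30 and 28 reads in WT with RA correspond to levels of 4.48 and 4.18, under the 27.8 that a count of 0 allows there. The median of the 5 members with reads in both libraries was -0.20, and that of all entries 0.03. The 66 higher and 67 lower entries became 99 and 34 when the scaling was estimated without Wt1 KO with RA.

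**Figure D2:**
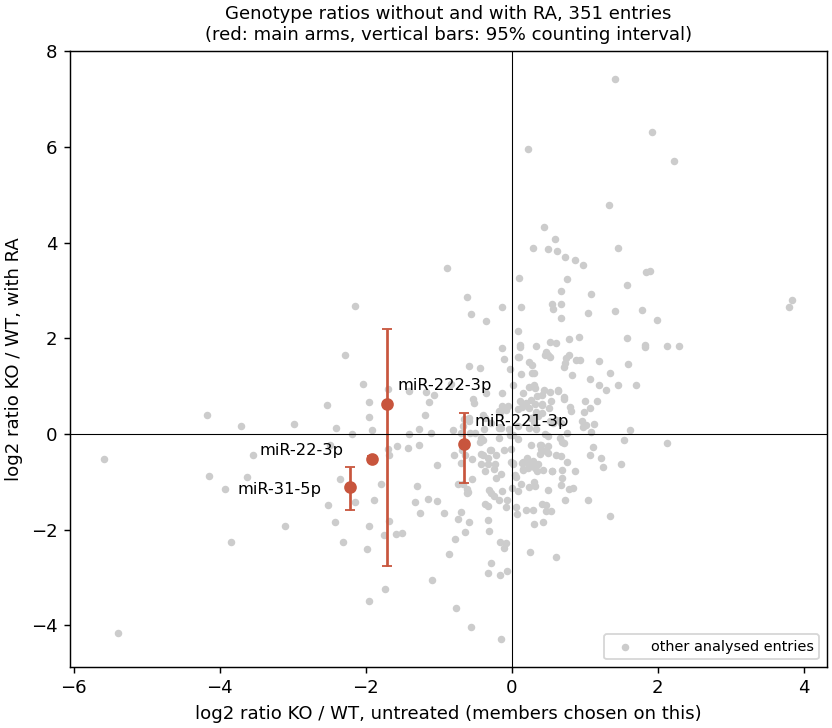
Log2 ratio of Wt1 KO to WT with RA (vertical) against the same ratio untreated (horizontal), 1 point for each of 351 entries, with the 4 main arms in red and vertical bars for their 95% counting intervals. The members lie to the left because they were chosen on the horizontal values; vertically miR-31-5p is at -1.10, miR-22-3p at -0.52, miR-221-3p at -0.20 and miR-222-3p at 0.62.

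The dox libraries were made, per the series' design, to induce Wt1 in the Wt1 KO cells. After 12 h, miR-22-3p was 2.00-fold its untreated Wt1 KO level (log2 ratio 1.00, 95% interval 0.98 to 1.02), just under the size rule before rounding and past it in 6 of 11 alternative settings. At 24 h its ratio was 0.82 (0.80 to 0.84), past the rule in 2 of 11. miR-31-5p lay on the other side, with -0.62 (-0.85 to -0.40) at 12 h and -0.32 (-0.48 to -0.16) at 24 h. Its ratio was negative at both times in all 9 settings that recompute it. It lay between -0.66 and -0.29 at 12 h. At 24 h it lay between -0.33 and -0.01, so its size there depends on the scaling and came close to 0. miR-221-3p had -0.66 (-0.95 to -0.38) and -0.20 (-0.40 to -0.00), the later value positive in 2 of those 9. miR-222-3p had -0.21 (-1.12 to 0.65) and 0.20 (-0.42 to 0.88), both within counting error. No member was called at either time, against 4.27% of all entries higher and 8.55% lower at 12 h, and 5.70% and 3.70% at 24 h. Both ratios share the untreated Wt1 KO library, so they are not independent of each other or of the choice of members. The 15 higher and 30 lower entries at 12 h became 44 and 9, and the 20 and 13 at 24 h became 37 and 6, when the total excluded the clustered stem cell miRNAs.

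Between 12 h and 24 h, in 2 libraries the choice of members did not use, the differences were small. miR-22-3p had a log2 ratio of -0.18 (95% interval -0.20 to -0.16), miR-31-5p of 0.30 (0.10 to 0.51), miR-221-3p of 0.46 (0.21 to 0.72) and miR-222-3p of 0.40 (-0.29 to 1.22). None of the 7 members was called, as against 4.27% of entries higher and 1.14% lower at 24 h.

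Wt1 KO with dox was also set against untreated WT. miR-31-5p had log2 ratios of -2.84 (95% interval -3.05 to -2.65) at 12 h and -2.54 (-2.66 to -2.43) at 24 h, beside -2.22 without dox. miR-22-3p had -0.92 (-0.94 to -0.90) and -1.10 (-1.11 to -1.08), beside -1.92 without dox. miR-221-3p had -1.32 (-1.60 to -1.05) and -0.86, and miR-222-3p -1.92 (-2.73 to -1.21) and -1.51 (-1.99 to -1.04). At 12 h 3 members were called lower and 0 higher, against 17.4% and 12.3% of all entries, and at 24 h 4 and 0, against 14.8% and 10.8%. These ratios share the untreated WT library, the other side of the pair the members were chosen on, so the counts are not independent of that choice. The 43 higher and 61 lower entries at 12 h became 32 and 72 with scaling by totals alone.

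**Figure D3:**
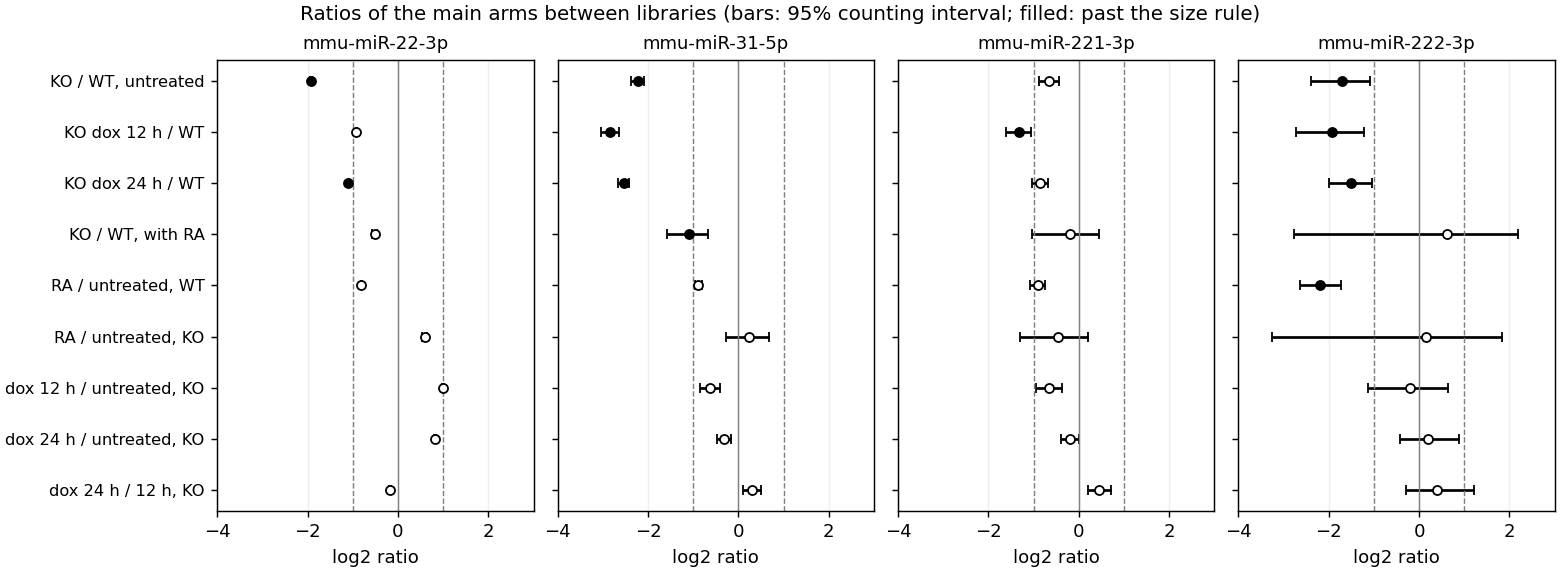
Log2 ratios (horizontal) of the 4 main arms in 9 pairs of libraries (vertical), with 95% counting intervals, dashed lines at the size rule of 1 and filled points for ratios past it. miR-22-3p lies right of 0 in both dox ratios, 1.00 and 0.82, while miR-31-5p lies left of 0, at -0.62 and -0.32.

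Because miR-22-3p and miR-31-5p differed in direction with dox, their reads were also compared within each library, where no scaling between libraries enters; this measure was chosen after the values were seen. miR-31-5p made up 2.659% of the reads of both in untreated WT (95% Wilson interval 2.537 to 2.786) and 2.161% in untreated Wt1 KO (1.976 to 2.363). Its share was 0.7126% (0.629 to 0.8071) at 12 h of dox and 0.9929% (0.9306 to 1.059) at 24 h. Under RA it was 2.523% (2.459 to 2.589) in WT cells and 1.688% (1.251 to 2.274) in Wt1 KO cells. Both dox libraries lay under the other 4, with intervals that did not overlap theirs. The shares use the same counts as the dox ratios, so they restate those ratios and are no separate support.

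miR-221-3p and miR-222-3p, which share a seed and lie next to each other on the X chromosome, were also compared by proportion within each library. miR-221-3p was 83.77% of the reads of both in untreated WT (95% Wilson interval 80.11 to 86.87), the lowest of the 6 libraries. In the other libraries the share was 91.55% (88.12 to 94.05) in untreated Wt1 KO, 88.83% (83.37 to 92.65) at 12 h of dox, 89.04% (86.58 to 91.09) at 24 h, 92.58% (91.06 to 93.86) in RA-treated WT and, on 17 and 2 reads, 89.47% (68.61 to 97.06) in RA-treated Wt1 KO. The interval of untreated WT overlapped those of 3 libraries and not those of untreated Wt1 KO and WT with RA. The untreated pair is the one the members were chosen on, and its shares restate the log2 ratios of -0.66 and -1.71. WT with RA is set against 1 side of that pair, so nothing is read from either difference.

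**Figure D4:**
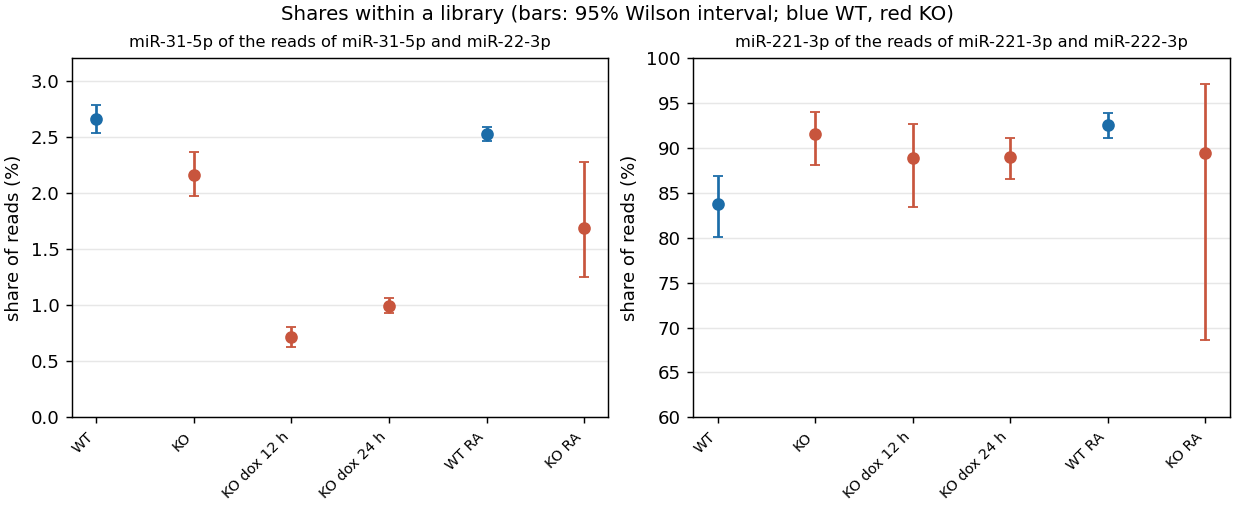
Share of reads within each library (vertical, percent) for miR-31-5p among reads of miR-31-5p and miR-22-3p (left) and for miR-221-3p among reads of miR-221-3p and miR-222-3p (right, axis from 60 to 100), with 95% Wilson intervals. On the left the 2 dox libraries, 0.7126% and 0.9929%, lie under the other 4, and on the right untreated WT is the lowest at 83.77%.

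Most reads of each hairpin came from 1 arm. The 3p arm of miR-22 held 99.92% to 99.98% of the reads of both its arms in the 6 libraries, and the 5p arm of miR-31 99.37% to 100%. The 3p arm of miR-221 held 96.22% to 100%. For miR-222 it was 89.01% (95% Wilson interval 80.94 to 93.92) at 24 h of dox and up to 100% in libraries where miR-222-5p had no read, with overlapping intervals. In Wt1 KO with RA the miR-222 share rests on 2 reads (34.24 to 100).

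The analysed entries with the most similar pattern over the 6 libraries were found by the root mean square difference of log2 levels, each taken about its own mean. For miR-22-3p they were miR-1247-5p (0.36), miR-421-3p (0.38) and miR-151-3p (0.39), where the median over the 350 other entries was 0.93. For miR-31-5p they were miR-125a-5p, miR-200b-5p and miR-200a-3p, each at 0.44 beside a median of 1.22. miR-200a-3p, for example, had levels of 305, 78.0, 71.6, 75.2, 437 and 111 scaled CPM in the library order used for miR-22-3p, also with both WT libraries above the others. Without Wt1 KO with RA, the shallowest library, miR-532-5p (0.36) took the place of miR-151-3p for miR-22-3p. For miR-31-5p, miR-200b-5p (0.35) stayed and miR-200b-3p (0.35) and miR-326-3p (0.37) took the other places.

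For miR-221-3p the most similar were miR-151-3p (0.22), miR-1249-3p (0.23) and miR-320-3p (0.24), beside a median of 0.82. For miR-222-3p they were miR-1247-5p (0.38), miR-467d-5p (0.40) and its cluster partner miR-221-3p (0.41), beside a median of 1.02. miR-222-3p in turn ranked 18 of 350 for miR-221-3p, so the partners were not each other's nearest pattern. All members were chosen to be low in untreated Wt1 KO, a library this measure includes. Likeness between members is therefore partly set by that choice, and nothing is read from it. miR-22-3p and miR-31-5p differed by 0.72, ranking 78 and 24 of 350 for each other. Without Wt1 KO with RA, miR-320-3p (0.15), miR-149-5p (0.18) and miR-151-5p (0.24) were nearest to miR-221-3p. For miR-222-3p they were then miR-1199-5p (0.35), miR-1247-5p (0.42) and miR-467d-5p (0.43), so the place of miR-221-3p among the nearest rests on a library with 2 reads of miR-222-3p.

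The name under which the members were grouped, mesenchyme-linked, was compared with the miRNAs that define mesenchyme. miR-199a, miR-214, miR-143 and miR-145 are known from fibroblasts, smooth muscle and other mesenchymal cells, miR-21 from fibrosis and miR-29 as repressors of collagen messages. In untreated WT, where all 4 main arms were highest, miR-199a-5p had 2 reads, miR-214-3p 1 and miR-214-5p 0, and miR-143-3p was at its lowest level over the 6 libraries, 207 scaled CPM. Other entries of the list were highest in untreated WT, as the main arms were: miR-21a-5p at 2406 scaled CPM, miR-21a-3p at 558 and, on 5 reads, miR-145a-3p at 4.59. The list thus had no single pattern there, and the members are called by their own names here.

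Of the 14 entries in that list 5 were analysed. In untreated Wt1 KO against WT 1 was called higher and 2 lower, beside 12.3% and 15.4% of all entries, with a median of 0.10. The lower ones were both arms of miR-21a, with log2 ratios of -2.98 (95% interval -3.13 to -2.83) for miR-21a-5p and -4.18 (-4.68 to -3.75) for miR-21a-3p, and the higher one was miR-143-3p at 1.08. miR-21a-5p was lowest in untreated Wt1 KO and highest in untreated WT, as miR-22-3p was, with levels of 2406, 305, 399, 485, 921 and 1064 scaled CPM over the 6 libraries in the same order. With RA in Wt1 KO 4 of the 5 were called higher and 0 lower, beside 23.6% and 22.5% of all entries, with a median of 2.12. For the difference between the RA responses 5 were called higher and 0 lower, beside 23.1% and 15.1%, with a median of 2.30. In Wt1 KO against WT with RA 3 were called higher and 0 lower, beside 18.8% and 19.1%. The median there was 1.61, and that of the 4 analysed members was -0.36.

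In that pair miR-143-3p had a log2 ratio of 2.92 and the merged entry of miR-199a-3p and miR-199b-3p one of 2.99 (95% interval 2.67 to 3.28). At 12 h of dox 1 of the 5 was called higher and 0 lower, beside 4.27% and 8.55% of all entries, and at 24 h 0 in either direction, beside 5.70% and 3.70%. Between 12 h and 24 h miR-21a-3p alone was called, lower at 24 h.

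Marker miRNAs of other cell types moved between the libraries too, and their part in the members' values was not tested. The 5 epithelial entries of the miR-200 family summed to 6258 scaled CPM in untreated WT and 7373 in WT with RA. In the 4 Wt1 KO libraries the sum was 1037 to 1976, under both WT libraries, an order that miR-31-5p also had. The 6 blood entries summed to 826 in untreated WT and 59.9 in WT with RA. In Wt1 KO their sum was 2944 to 4200 without RA and 222 with RA. Among them miR-223-3p, miR-451a and miR-144-3p were at 0 in all 6 libraries. miR-150-5p, also on that list, had log2 ratios of 1.83 for untreated Wt1 KO against WT and -3.79 for RA in WT. The 3 muscle entries summed to 108 in untreated WT, 423 in WT with RA, 8.50 to 13.2 in Wt1 KO without RA and 222 with RA, with miR-1a-3p and miR-206-3p at 0 in all 6. The endothelial sum ran from 33.0 to 213, the endoderm sum from 178 to 360 and the neural sum from 328 to 639.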

How the data were processed

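Small RNA libraries were made by ligating adapters to total RNA and pooling gel bands of miRNA and of slightly longer inserts, per the labels' protocols. The values used are the deposited counts of uniquely matched reads per mature miRNA, as the file headers name them, and multi-match reads entered 1 alternative. Aligner, genome build and miRBase version: not given in the sources used here. The 7 members, the lists and the rules were chosen with earlier results of these data known.

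Counts of the 351 entries with a mean of at least 50 were scaled by TMM over the 6 libraries (edgeR 4.0.16, R 4.3.3). Factors were 1.02, 0.798, 0.922, 0.937, 1.10 and 1.29, and 1 scaling served all 10 comparisons. Log2 ratios had a prior count of 0.5 per library and exact conditional binomial (Clopper-Pearson) intervals at 95%. The RA response difference had a delta method interval on its 4 counts, and shares had Wilson intervals. With 1 library per group there is no test and no p-value. The ratio code was checked on simulated counts. Named were all members, miR-222-5p, the 3 most similar entries for each main arm and the listed mesenchyme miRNAs. Sequences and positions come from the tables and RefSeq.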

Additional observations from a re-analysis of the deposited data

Results flagged for a closer look

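For miR-22-3p, RA went with a lower level in WT (log2 ratio -0.81, 95% interval -0.83 to -0.80) and a higher level in Wt1 KO (0.59, interval 0.53 to 0.65). The responses thus lay on opposite sides of 0, with a difference of 1.40. The difference was not tested, since each of the 4 groups has 1 library, and it includes the untreated Wt1 KO library on which the miRNA was chosen. Over the 11 alternative settings it lay between 1.03 and 2.12 and passed the size rule in 10. Of all entries 23.1% were called higher for this difference and 15.1% lower. The reversal is not particular to miR-22-3p. Both arms of miR-21a also had responses on opposite sides of 0, with differences of 3.19 (miR-21a-5p) and 4.58 (miR-21a-3p). How many of the analysed entries have such a reversal was not counted.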

How the results depend on the processing

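Of 11 alternative settings 9 recompute the ratio and 2 change only the rule for a call. The 9 gave 630 values over the 7 members and 10 comparisons, of which 549 stayed inside the counting interval, 81 moved out of it and 0 reversed a called value. Over all 11, 42 calls changed. The counts of members called that moved by more than 1.5 times were these. Scaling by totals gave 1 for RA in Wt1 KO, 0 for the genotypes under RA, 1 at each dox time, and 5 for dox 12 h against WT. Leaving the miR-290 and miR-302 clusters out of the total gave 4 for RA in WT cells and 1 in Wt1 KO cells, 0 for the genotypes under RA, and 1 at each dox time. DESeq2's median of ratios gave 0 for the genotypes with RA and 1 for dox 12 h. Estimating TMM without Wt1 KO with RA gave 1 for RA in Wt1 KO, 0 for the genotypes with RA and 1 for dox 12 h. A minimum of 10 gave 1 for dox 12 h, and no minimum 1 for dox 12 h and 2 for the RA response difference. A size rule of 1.5 gave 0 for the genotypes with RA and 2 for the RA response difference. Requiring the interval bound to pass 1 gave 1 for RA in WT, 0 for the genotypes with RA and 1 for the RA response difference. The gains for dox or RA against untreated Wt1 KO were all miR-22-3p (1.05 to 1.33 at 12 h of dox), and the loss for the genotypes with RA was miR-31-5p, at -0.86, -0.90, -0.73 and -0.66 under the 4 other scalings. Smaller moves were from 4 to 6 for the untreated genotypes and 4 to 5 for the RA response difference under scaling by totals or without the clusters, from 4 to 6 for that difference with a prior of 2, and from 2 to 3 for RA in WT with a minimum of 200. The size rule of 1.5 took dox against WT from 3 to 2 at 12 h and from 4 to 3 at 24 h, and the interval bound took 24 h and the untreated genotypes from 4 to 3.

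Scaling by totals shifted the median of all entries by -0.36 for the untreated genotypes, 0.70 for RA in Wt1 KO, 0.24 for the genotypes under RA, 0.21 after 12 h of dox and 0.23 after 24 h, and leaving out the stem cell clusters by 0.72 for the RA response difference. Shares within a library have no setting that could change them, since no multi-match read was listed for the members. The depth of Wt1 KO with RA, 83626 reads, limits every ratio that uses it. No paired analysis was possible because each group has 1 library.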
